A study of Rattus norvegicus with 6 samples.

Results

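Immediate early genes are switched on within minutes of a stimulus, without new protein synthesis, and most of their products are transcription factors or regulators of growth. The 10 genes described here are Fos, Fosb, Jun, Junb and Atf3, which encode partners in AP-1 and related basic leucine zipper dimers, the zinc finger gene Egr1, the rapid response genes Ier2 and Btg2, and the orphan nuclear receptor genes Nr4a1 and Nr4a3. They were taken by gene symbol from a heart RNA-seq count table with 32883 named rows. Each of the 10 symbols had 1 row, and all 10 passed the filter on low counts, which kept 13766 genes.

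The hearts came from Sprague–Dawley rats, which are outbred. The animals were male, 8 weeks old and 250 to 300 g in weight, and their genotype is given as WT. A heart is named by its group and the replicate number of its library. One group of 3 rats had saline under the skin for 7 consecutive days, and the other group of 3 had ISO at 1.5 mg/kg/day by the same route over the same days. ISO was taken to mean isoproterenol, which activates beta-adrenergic receptors, and the series uses it to model myocardial hypertrophy and fibrosis. The question asked of each gene was whether its RNA level differed between ISO and saline hearts. The labels name the tissue only as heart, and the time from the last injection to removal of the heart was not given.

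In the heart, beta-adrenergic receptors raise cyclic AMP, and the kinases downstream phosphorylate CREB, which binds cyclic AMP response elements (CRE). Stretch and growth factors act through MAP kinases on serum response factor (SRF) and its ETS-domain partners, which bind the serum response element, whose core is named the CArG box. Fos and Jun proteins then pair as AP-1 and act on later genes, and the NR4A receptors bind DNA without a known hormone ligand. The transcripts of Fos, Egr1 and Nr4a1 are short-lived, so a single time point shows only the level at that time.

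None of the 10 genes was called different between ISO and saline. Differences were tested with edgeR's quasi-likelihood F test over all tested genes, with a call at a Benjamini-Hochberg adjusted p under 0.05, and 2.97% of all tested genes were called. The log2 fold change of ISO over saline was above 0 for 8 of the 10 genes, against 52.3% of all tested genes, and its median was 0.40 against 0.02 over all tested genes. Without ISO replicate 3, 6 of the 10 were above 0 with a median of 0.14, against 51.9% and 0.01 over all tested genes. Without scaling all 10 were above 0 with a median of 0.51, against 65.3% and 0.13 over all tested genes. An unadjusted p under 0.05 was reached by 2 of the 10, Fos and Junb, against 22.9% of all tested genes. ISO was above saline with no overlap of libraries for 2 of the 10, Junb and Nr4a3, against 14.1% of all tested genes, and below it for none of the 10, against 14.6%. The rule stated for the series, p under 0.05 without adjustment and a log2 change beyond 0.5 either way, took Fos and Junb, and it took 13.2% of all tested genes. DESeq2 called Junb alone, where it called 10.2% of all tested genes, and voom called none of the 10.

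For several of these genes the 3 ISO hearts lay far from one another. ISO replicate 3 had the highest level of Fos, Junb, Egr1, Atf3 and Ier2, which is 5 of the 10 genes, against 24.2% of all tested genes. ISO replicate 2 had the lowest level of Egr1 and Ier2. The SD of log2 CPM was larger in ISO than in saline for 8 of the 10 genes, against 56.2% of all tested genes. The median SD was 0.35 in ISO and 0.22 in saline for the 10 genes, and 0.21 and 0.19 for all tested genes. No test was run on these spreads. CPM are read counts scaled to library size, here after TMM scaling, and because gene lengths were not used, levels are compared between libraries and not between genes.

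Promoter sequence was looked up because the promoters of these genes are where the signals named above are read. RefSeq windows of the rat build GRCr8, from 250 bases before to 50 bases after the annotated start, were at hand for Fosb, Junb, Egr1, Ier2, Btg2 and Nr4a1, and not for Fos, Jun, Atf3 and Nr4a3. The stretches below show the CRE-like letters of 2 genes that were highest in ISO replicate 3, Ier2 and Junb, and of 2 genes that were not, Nr4a1 and Btg2. Each reads 5′ to 3′ on the strand of the gene and ends before the annotated start. Capitals mark the motifs named after them.
Ier2, chr19:40399283-40399342, plus strand: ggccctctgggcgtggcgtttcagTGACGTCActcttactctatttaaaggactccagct
Junb, chr19:40080966-40081085, plus strand: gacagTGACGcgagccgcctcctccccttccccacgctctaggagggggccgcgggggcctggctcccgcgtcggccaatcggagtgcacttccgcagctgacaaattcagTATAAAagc
Nr4a1, chr7:134260038-134260107, plus strand: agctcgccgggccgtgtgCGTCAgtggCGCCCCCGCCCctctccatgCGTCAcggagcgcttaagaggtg
Btg2, chr13:48087821-48087900, minus strand: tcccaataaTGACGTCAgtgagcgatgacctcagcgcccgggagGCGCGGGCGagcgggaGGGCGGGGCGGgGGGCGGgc

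The capitals in Ier2 are the full palindromic CRE, TGACGTCA, whose first base lies 66 bases before the start. Btg2 holds the same full CRE 201 bases before its start, then an EGR site (GCGNGGGCG) and 3 GC boxes (GGGCGG). Junb holds the CRE core TGACG 155 bases and a TATA box (TATAAA) 49 bases before the start. In the stretch shown, Nr4a1 holds the CRE core on the opposite strand, as CGTCA, at 82 and 53 bases before the start. An EGR site and an overlapping GC box lie between them on the same strand. Further upstream, its window also holds CGTCA at −246 and −226, and the GC box on that strand at −187 and −127. Both strands were searched, and a full CRE also counts as a CRE core. The full CRE was found in 2 of the 6 windows and in 1.83% of all 33469 windows of this length, and the core in 5 of 6, all but Fosb, and in 21.2%. The EGR site was in 2 of 6 and in 4.98% of all windows, and the GC box in 2 of 6 and in 33.1%. The letters TATAAA, on either strand, were in 2 of 6, Junb and Fosb, and in 14.2%. The Fosb match lay on the opposite strand, as TTTATA, at −180 relative to the start. The CArG box was found only in the window of Egr1, with 2 matches, and in 1.64% of all windows. The AP-1 site (TGANTCA) and the NR4A element AAAGGTCA were in none of the 6, and in 7.33% and 1.43% of all windows. These matches describe letters and not binding. A full CRE stood in Ier2, which was highest in ISO replicate 3, and in Btg2, which was not.

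**Figure D1:**
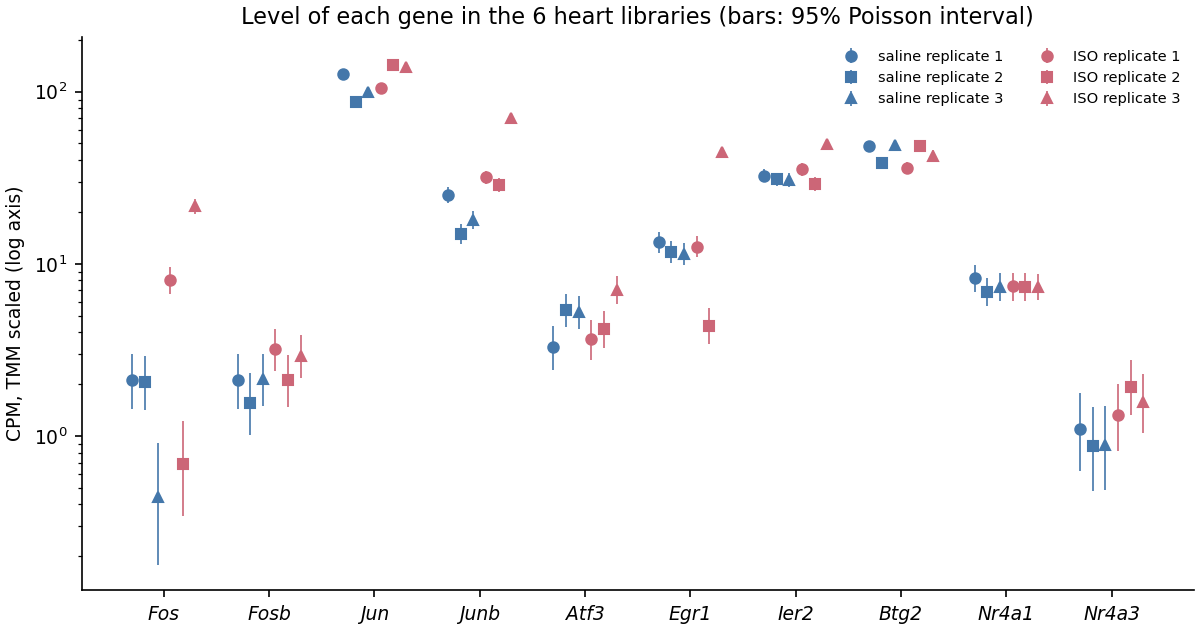
Level of each gene (CPM, log axis) in the 6 heart libraries, saline in blue and ISO in red, with the marker shape giving the replicate and bars the 95% exact Poisson interval of the count. Fos spans 0.442 to 21.6 CPM and Egr1 4.37 to 44.6 CPM, while the 6 Nr4a1 points lie between 6.88 and 8.24 CPM.

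Fos encodes the c-Fos subunit of AP-1 (ENSRNOG00000008015). Saline hearts 1 to 3 held 2.11, 2.06 and 0.442 CPM, from 31, 33 and 7 reads. ISO hearts 1 to 3 held 8.02, 0.686 and 21.6 CPM, from 128, 11 and 370 reads. ISO replicates 1 and 3 therefore lay above every saline library, and ISO replicate 2 lay below saline replicates 1 and 2. Relative to the saline mean, the ISO hearts were at 5.21, 0.446 and 14.0 times its level, and the highest ISO library held 31.5 times the level of the lowest. The exact Poisson intervals, which cover counting error only, were 0.342 to 1.23 CPM in ISO replicate 2 and 0.178 to 0.911 CPM in saline replicate 3, and they overlap. The log2 fold change was 2.71 (SE 1.01, 95% interval 0.40 to 5.03, edgeR adjusted p = 0.162), the largest of the 10 and not called.

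The Fos value depended on which ISO hearts were included. Without ISO replicate 2 the log2 fold change was 3.26 (SE 0.61) and was called (edgeR adjusted p = 0.0328), in a fit that called 5.95% of all tested genes. Without ISO replicate 3 it was 1.50 (SE 0.91, edgeR adjusted p = 0.399). Over all the alternatives tried its adjusted p lay between 0.0328 and 0.481, and its sign did not change.

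Fosb encodes a c-Fos paralogue (ENSRNOG00000046667). Saline hearts 1 to 3 held 2.11, 1.56 and 2.15 CPM, and ISO hearts 1 to 3 held 3.20, 2.12 and 2.92 CPM. ISO replicates 1 and 3 were the highest of the 6 libraries, as for Fos, but ISO replicate 2 lay within the saline range. The range across ISO hearts was 1.51-fold, narrower than that of Fos. ISO over saline gave a log2 value of 0.50 (SE 0.31, 95% interval −0.21 to 1.21, edgeR adjusted p = 0.372).

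Jun encodes c-Jun, the partner that lets Fos proteins bind DNA (ENSRNOG00000026293). In saline, hearts 1 to 3 held 127, 87.7 and 99.1 CPM, and the ISO hearts held 105, 143 and 139 CPM in the same order of replicates. ISO replicates 2 and 3 were the highest libraries, and ISO replicate 1 lay inside the saline range. This order differs from that of Fos, for which ISO replicate 2 was among the low libraries. Its log2 fold change was 0.30 (SE 0.17, 95% interval −0.09 to 0.70, edgeR adjusted p = 0.328).

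Junb encodes JunB, a weaker activator than c-Jun that competes with it for partners (ENSRNOG00000042838). Levels were 25.2, 14.9 and 18.0 CPM in saline hearts 1 to 3 and 31.9, 28.6 and 69.9 CPM in ISO hearts 1 to 3. Every ISO library lay above every saline library, and ISO replicate 3 lay well above the other two ISO hearts. The mean was 43.5 ± 22.9 CPM in ISO and 19.4 ± 5.26 CPM in saline (SD, n = 3 each), a fold of 2.25. Between the groups the log2 fold change was 1.17 (SE 0.35, 95% interval 0.37 to 1.97, edgeR adjusted p = 0.102).

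Junb was the gene of the 10 nearest to a call. DESeq2 called it at 1.16 (SE 0.33, DESeq2 adjusted p = 0.00809), while over all the alternatives its adjusted p ranged from 0.00809 to 0.27. Without ISO replicate 3 the log2 fold change was 0.65 (SE 0.21, edgeR adjusted p = 0.151), so that library carried much of its size. With each of the 6 libraries left out in turn, it lay between 0.65 and 1.39.

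Atf3 encodes a stress-induced repressor of the same leucine zipper class (ENSRNOG00000003745). Saline hearts 1 to 3 held 3.27, 5.38 and 5.24 CPM, and ISO hearts 1 to 3 held 3.63, 4.18 and 7.06 CPM. ISO replicate 3 was the highest library, and ISO replicates 1 and 2 lay within the saline range. The Poisson interval of ISO replicate 3, from 121 reads, was 5.86 to 8.44 CPM. It overlapped those of saline replicates 2 and 3, 4.30 to 6.64 and 4.18 to 6.50 CPM. As a log2 fold change, ISO over saline was 0.10 (SE 0.33, 95% interval −0.65 to 0.84, edgeR adjusted p = 0.89). It was −0.10 without saline replicate 1 and −0.24 without ISO replicate 3.

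**Figure D2:**
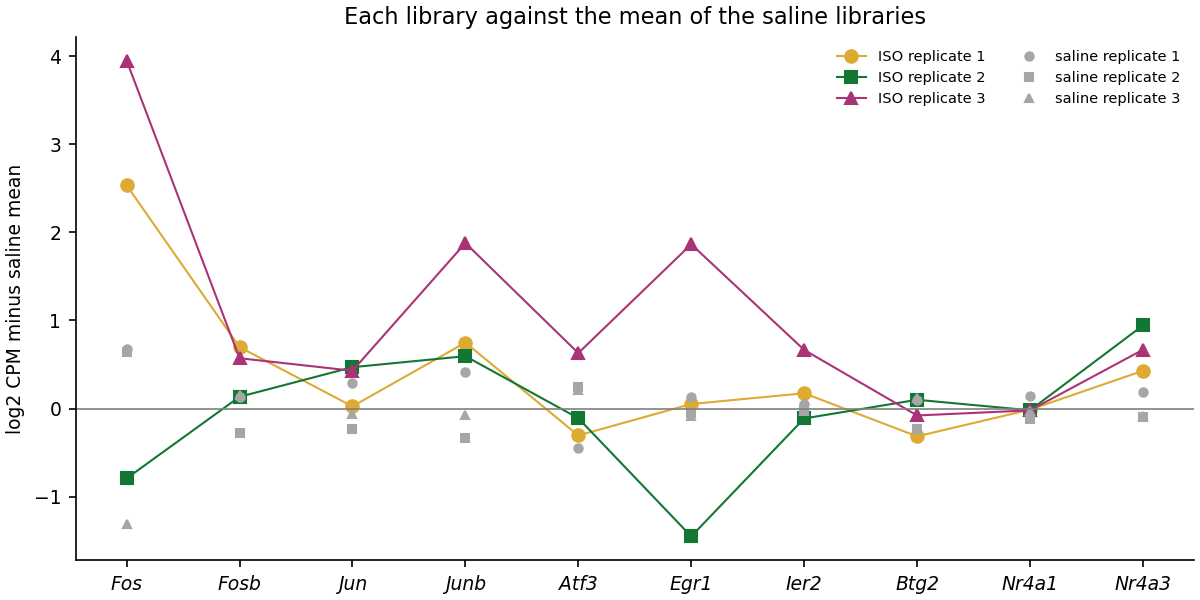
Log2 CPM of each library minus the mean of the 3 saline libraries, for each gene, with coloured lines for the ISO replicates and grey markers for saline. ISO replicate 3 stands at 3.95 for Fos, 1.88 for Junb and 1.86 for Egr1, ISO replicate 2 at −1.45 for Egr1, and the lines meet near 0 at Nr4a1.

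Egr1 encodes an early growth response zinc finger factor that binds GC-rich sites (ENSRNOG00000019422). Saline hearts 1 to 3 held 13.4, 11.8 and 11.4 CPM, which differed from one another by no more than 1.17-fold. ISO hearts 1 to 3 held 12.6, 4.37 and 44.6 CPM, a 10.2-fold range. ISO replicate 3 lay above all saline libraries, ISO replicate 2 below all of them and ISO replicate 1 among them. The mean was 20.5 ± 21.2 CPM in ISO and 12.2 ± 1.03 CPM in saline (SD, n = 3 each). The Poisson intervals of ISO replicate 2, 3.40 to 5.52 CPM, and of ISO replicate 3, 41.5 to 47.9 CPM, did not reach those of any saline library. These intervals leave out the spread between rats.

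For Egr1 the log2 fold change of 0.75 (SE 0.66, 95% interval −0.77 to 2.27, edgeR adjusted p = 0.54) averages hearts on both sides of saline. It turned to −0.52 (SE 0.38, edgeR adjusted p = 0.489) without ISO replicate 3 and was 1.23 (SE 0.44, edgeR adjusted p = 0.141) without ISO replicate 2. Egr1 and Fos had the same order of ISO hearts, but their distances from saline were not matched heart by heart. In ISO replicate 1, Fos stood at 5.21 times the saline mean and Egr1 at 1.03 times, whereas in ISO replicate 2 both were below it, at 0.446 and 0.358 times.

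Ier2 encodes a small nuclear protein induced with Fos (ENSRNOG00000054344). In saline, hearts 1 to 3 held 32.6, 30.9 and 30.7 CPM, and the ISO hearts held 35.4, 29.0 and 49.8 CPM in the same order of replicates. The saline hearts lay within 1.06-fold of one another, ISO replicate 3 was highest and ISO replicate 2 lowest. This is the same order of ISO hearts as for Fos, Junb and Egr1. The estimated log2 fold change was 0.28 (SE 0.19, 95% interval −0.15 to 0.71, edgeR adjusted p = 0.406), and it was 0.04 without ISO replicate 3.

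Btg2 encodes an antiproliferative protein that recruits the deadenylation machinery to mRNA and is also a p53 target (ENSRNOG00000003300). Levels were 48.2, 38.3 and 49.0 CPM in saline hearts 1 to 3 and 36.0, 48.1 and 42.5 CPM in ISO hearts 1 to 3. The groups overlapped, and ISO replicate 3 was not high. The log2 fold change was −0.10 (SE 0.15, 95% interval −0.43 to 0.24, edgeR adjusted p = 0.736), and it was 0.00 without scaling.

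Nr4a1 encodes Nur77, an orphan nuclear receptor known to be induced early by beta-adrenergic stimulation of muscle (ENSRNOG00000007607). Saline hearts 1 to 3 held 8.24, 6.88 and 7.33 CPM, and ISO hearts 1 to 3 held 7.39, 7.36 and 7.35 CPM. The ISO libraries held 118, 118 and 126 reads, and the exact Poisson interval of each was wider than the gap between them. ISO over saline gave a log2 value of −0.02 (SE 0.17, edgeR adjusted p = 0.957), with a 95% interval of −0.41 to 0.36, and its sign changed without scaling, at 0.08, and without saline replicate 1, at 0.05. The hearts that differed 31.5-fold in Fos held almost the same Nr4a1 level.

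Nr4a3 encodes NOR-1, the related receptor (ENSRNOG00000005964). In saline, hearts 1 to 3 held 1.09, 0.875 and 0.884 CPM, and the ISO hearts held 1.32, 1.93 and 1.58 CPM in the same order of replicates. Every ISO library lay above every saline library, and ISO replicate 2, low for Fos and Egr1, was the highest. The counts were small, from 14 to 31 reads, and the Poisson interval of ISO replicate 1, 0.814 to 2.01 CPM, reached across the saline values. Its log2 fold change was 0.76 (SE 0.35, 95% interval −0.04 to 1.55, edgeR adjusted p = 0.237), and it lay between 0.60 and 0.87 with each library left out in turn. The difference between the changes of Nr4a3 and Nr4a1 was not tested.

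**Figure D3:**
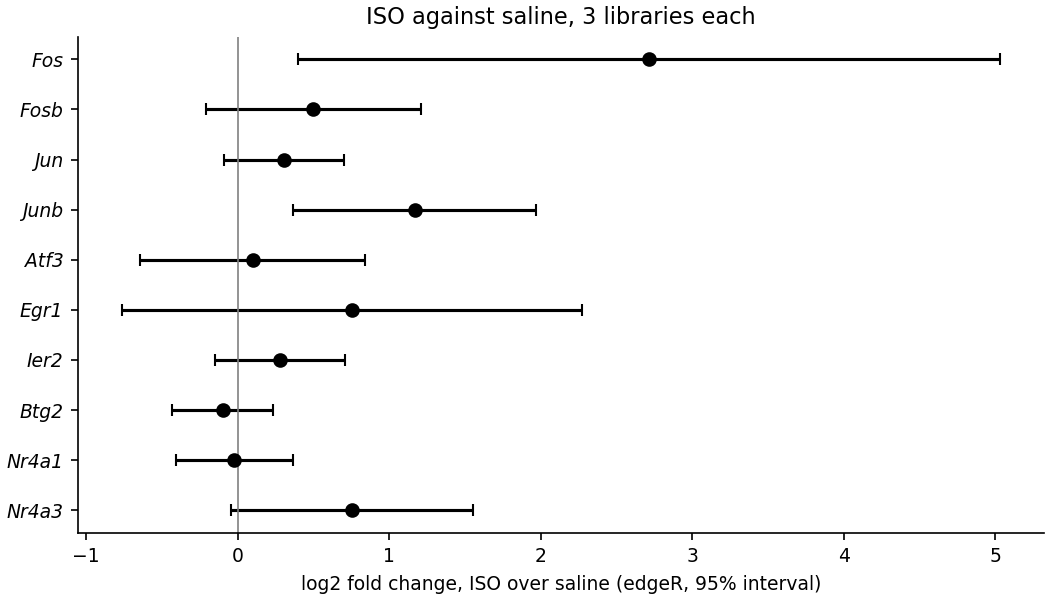
Log2 fold change of ISO over saline for each gene from edgeR (points) with its 95% interval (bars), 3 libraries in each group. The intervals of Fos, 0.40 to 5.03, and Junb, 0.37 to 1.97, lie above 0 before adjustment over all genes, and the other 8 cross 0.

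The make-up of the FOS family differed between hearts. Of the reads of Fos, Fosb, Fosl1 and Fosl2, Fos took 18.0%, 18.2% and 4.02% in saline replicates 1 to 3 and 36.7%, 4.74% and 58.5% in ISO replicates 1 to 3. The Wilson 95% intervals were 31.8% to 41.9% in ISO replicate 1, 2.67% to 8.29% in ISO replicate 2 and 54.7% to 62.3% in ISO replicate 3. These shares were not corrected for gene length, so they compare hearts and not genes. Fosl2, the gene of Fra-2, took 46.5%, 54.7% and 44.8% in saline replicates 1 to 3. In ISO replicates 1 to 3 it took 39.5%, 59.5% and 24.1%. Its own level was even across the ISO hearts, at 8.65, 8.61 and 8.87 CPM, against 5.45, 6.19 and 4.93 CPM in saline, so its smaller share in ISO replicate 3 went with the larger number of Fos reads.

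Within the JUN family the shares varied less. Junb took 8.59%, 7.27% and 7.65% of the reads of Jun, Junb and Jund in saline replicates 1 to 3, and 12.2%, 9.72% and 20.2% in ISO replicates 1 to 3. Its share was thus higher in each ISO heart than in any saline heart, and highest in ISO replicate 3, where the Wilson 95% interval was 19.2% to 21.2%. Jun took 40.1% to 48.5% of the family reads in ISO and 42.1% to 43.2% in saline.

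**Figure D4:**
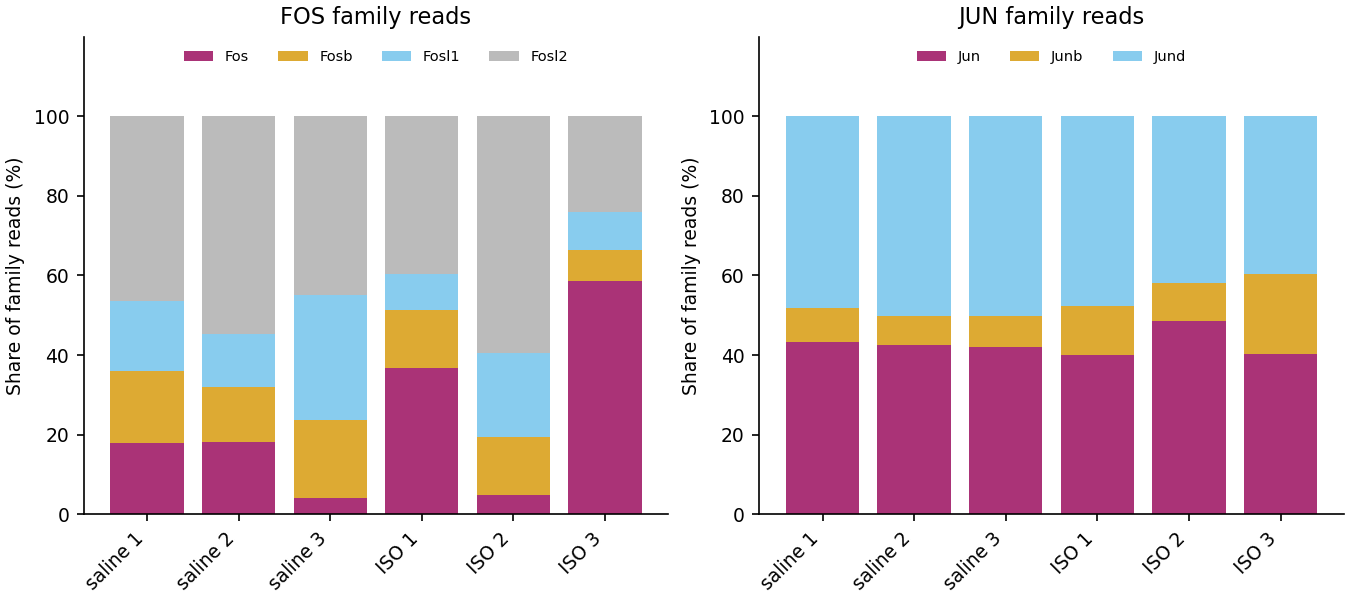
Share of the reads of the FOS family (left) and of the JUN family (right) taken by each gene, in percent, 1 bar per library. Fos takes 58.5% of FOS family reads in ISO replicate 3 and 4.74% in ISO replicate 2, and Junb takes 20.2% of JUN family reads in ISO replicate 3.

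None of the other AP-1 family and small Maf genes was called by edgeR. All 10 were in the table and 8 were tested, with a median log2 fold change of 0.37. ISO was above saline with no overlap for 4 of the 8, against 14.1% of all tested genes. At an unadjusted edgeR p under 0.05 there were 3, against 22.9% of all tested genes. DESeq2 called 2, against 10.2%, and voom 0. Jund, the gene of the constitutive Jun protein, gave 0.09 (SE 0.13, edgeR adjusted p = 0.744), and Mafk, a small Maf partner, gave 0.45 (SE 0.14, edgeR adjusted p = 0.117). Fosl2, named after its values were seen, gave 0.66 (SE 0.18, edgeR adjusted p = 0.0785) with no overlap between groups.

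Of the 6 other EGR and NR4A genes and EGR corepressors, 5 were tested and none was called by edgeR, DESeq2 or voom, with 0 at an unadjusted p under 0.05. ISO replicate 3 was the highest library for 4 of the 5, against 24.2% of all tested genes. Egr2, named after its values were seen, stood at 1.25, 0.936 and 3.03 CPM in ISO replicates 1 to 3 and at 1.29, 0.563 and 0.632 CPM in saline. These levels came from 9 to 52 reads, with a log2 difference of 1.075 (SE 0.561, edgeR adjusted p = 0.29). Egr3, also named after its values were seen, gave −0.205 (SE 0.597, edgeR adjusted p = 0.875). Nr4a2, the third NR4A receptor and also named after its values were seen, stood at 4.76, 4.18 and 6.30 CPM in ISO and at 3.95, 4.002 and 3.73 CPM in saline, a log2 difference of 0.38 (SE 0.24, edgeR adjusted p = 0.37). The EGR corepressor genes Nab1 and Nab2 gave −0.33 (SE 0.15) and 0.63 (SE 0.27), with edgeR adjusted p of 0.227 and 0.219.

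A wider list of 51 rapid response genes, of which 50 were in the table and tested, held 1 call in each direction and 48 genes without a call. Of all tested genes, 2.97% were called. Klf10, a TGF-beta-inducible zinc finger gene, rose by 0.88 on the log2 scale (SE 0.18, edgeR adjusted p = 0.0419), from 24.8, 26.0 and 21.5 CPM in saline to 56.6, 36.1 and 40.4 CPM in ISO. Dusp8, the gene of a MAP kinase phosphatase, fell by 1.19 (SE 0.22, edgeR adjusted p = 0.0334), from 21.8, 15.9 and 19.0 CPM to 7.52, 10.9 and 6.42 CPM. For both genes all 3 ISO hearts lay on 1 side of saline. Of the 6 fits with a library left out, each of these genes was called in 1, the fit without ISO replicate 2.

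In the wider list 38 of 50 log2 fold changes were positive with a median of 0.32, against 52.3% and 0.02 over all tested genes. Unadjusted edgeR p under 0.05 was reached by 14 higher and 4 lower genes, against 22.9% of all tested genes in either direction. DESeq2 called 9 of the 50, against 10.2%. ISO replicate 3 was the highest library for 19 of the 50, against 24.2% of all tested genes. The list's median relative to saline was 0.04, 0.29 and 0.35 in ISO replicates 1 to 3.

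SRF and its cofactors held 2 calls, both lower, among 6 tested genes. Of the 6 promoter windows searched, only that of Egr1 held a CArG box. Whether these 2 changes bear on the 10 genes was not tested. The called share of all tested genes was 2.97%, either way. Srf fell by 0.81 on the log2 scale (SE 0.14, edgeR adjusted p = 0.026), from 145, 116 and 125 CPM in saline to 71.7, 84.6 and 64.8 CPM in ISO. Myocd, the gene of the SRF coactivator myocardin, fell by 1.56 (SE 0.15, edgeR adjusted p = 0.00748), from 64.97, 60.4 and 47.9 CPM to 17.5, 19.2 and 22.1 CPM. Myocd was called in all 6 fits with a library left out, and Srf in 2 of them, those without ISO replicate 2 or 3. The ETS-domain partners Elk1, Elk3 and Elk4 were not called, with log2 fold changes from −0.18 to 0.11.

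The CREB family and its coactivators had no call among 8 tested genes by edgeR, DESeq2 or voom, and 0 at an unadjusted edgeR p under 0.05. Their median was −0.07, with Crebbp at 0.09 and Atf1 at −0.05. The MAP kinase cascade had no edgeR call among 23 tested genes and a median of −0.19, with 2 higher and 6 lower at an unadjusted p under 0.05. Of all tested genes, 22.9% reached that p in either direction. DESeq2 called 3 of the 23, against 10.2% of all tested genes, and voom 0. Of the 23 log2 fold changes, 7 were above 0, against 52.3% of all tested genes. Without overlap, 2 of the 23 were above and 7 below saline, against 14.1% and 14.6% of all tested genes. Map2k2, a kinase that phosphorylates ERK, gave 0.13 (SE 0.13, edgeR adjusted p = 0.603). These are RNA levels, and phosphorylation was not measured in this table.

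Genes linked to single members were also not called by edgeR. The integrated stress response partners of Atf3 had 6 tested members, a median of 0.14 and none at an unadjusted p under 0.05, with Atf4 at 0.21 (SE 0.10) and Ppp1r15a at 0.31 (SE 0.14). DESeq2 and voom called none of these either. The p53 targets beside Btg2 had 9 tested members and a median of 0.14, with Ccng1 at −0.37 (SE 0.13) and Sesn1 at 0.14 (SE 0.17). Of the 9, 2 had an unadjusted edgeR p under 0.05, against 22.9% of all tested genes. DESeq2 called 2, against 10.2%, and voom none. The BTG and TOB family had 4 tested members, none at an unadjusted p under 0.05 and no call by DESeq2 or voom, with Btg1 at 0.15 and Tob1 at −0.08.

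Heat shock genes were counted because they also respond to tissue handling. Of 7 tested, none was called higher and 2 were called lower by edgeR, with a median of 0.15. The called share of all tested genes was 2.97%, either way. Hsph1, a co-chaperone gene, fell by 0.93 on the log2 scale (SE 0.13, edgeR adjusted p = 0.0164), and Hspb1, a small heat shock protein gene, fell by 0.78 (SE 0.12, edgeR adjusted p = 0.0205). Each was called in 2 of the 6 fits with a library left out. Without overlap, 2 of the 7 were above and 3 below saline, against 14.1% and 14.6% of all tested genes. ISO replicate 3 was the highest library for 3 of the 7, Hmox1, Hspa1b and Hsp90aa1, against 24.2% of all tested genes. Hmox1, the gene of heme oxygenase 1 and named after its values were seen, stood at 18.0, 18.3 and 60.7 CPM in ISO replicates 1 to 3 and at 9.94, 14.8 and 9.10 CPM in saline, a log2 difference of 1.52 (SE 0.48, edgeR adjusted p = 0.11). Relative to saline, the list's median was 0.09, −0.32 and 0.07 in ISO replicates 1 to 3. The part of handling in the levels of the 10 genes was not tested.

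The libraries held 14880391 to 17299589 reads, and a floor of 3 reads corresponds to 0.175 to 0.204 CPM. The labelled tissue was checked against 12 cardiomyocyte markers, and all 11 that were in the table had reads in every library. ISO replicate 3 stood apart in cell type markers as well as in Fos, Junb and Egr1. All 8 macrophage markers were above saline without overlap, against 14.1% of all tested genes. They summed to 549, 467 and 775 CPM in ISO replicates 1 to 3 and to 269 to 315 CPM in saline. Fibroblast markers, also 8 of 8 without overlap, summed to 10900, 10120 and 19490 CPM in ISO and to 5137 to 5657 CPM in saline. Most of the excess in ISO replicate 3 lay in 2 collagen genes. Col1a1 stood at 1648, 1389 and 6356 CPM in ISO replicates 1 to 3, and Col3a1 at 4473, 3892 and 8160 CPM. ISO replicate 3 was the highest library for 5 of the 8 fibroblast markers, against 24.2% of all tested genes. Pdgfra and Tcf21 were highest in ISO replicate 1, and Gsn in ISO replicate 2. Of the 11 cardiomyocyte markers, 1 was above and 4 were below saline without overlap, against 14.1% and 14.6% of all tested genes. The 11 summed to 49740, 62540 and 42610 CPM in ISO and to 61410 to 74770 CPM in saline. No gene of these 3 lists was at 0 in any library. The part of cell composition in the levels of the 10 genes was not tested, and in a bulk library fewer cells of a type and less RNA per cell cannot be told apart.

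Other markers also set single hearts apart. Of 6 erythroid markers, none was at 0 and 2 were below saline without overlap, against 14.6% of all tested genes. They summed to 4284, 5035 and 1600 CPM in ISO replicates 1 to 3 and to 4317 to 10780 CPM in saline. Of 5 tested T and NK cell markers, 1 was above and 1 below saline without overlap, against 14.1% and 14.6% of all tested genes. The markers of this list summed to 50.2, 42.5 and 94.6 CPM in ISO and to 35.1 to 42.0 CPM in saline. Gzmb was at 0 in 1 saline library. Cd4 alone gave 66.9% to 83.4% of these sums, and the other 6 genes summed to 9.71, 7.05 and 18.5 CPM in ISO and to 11.3 to 13.3 CPM in saline. Of those 6, Cd8a stood at 10.1 CPM in ISO replicate 3, while Cd3e, at 1.52 CPM, lay within the saline range and Nkg7 was lower in every ISO heart than in any saline heart. In ISO replicate 1, which had the second-highest Fos, the atrial myosin light chain gene Myl7 stood at 70.7 CPM, against 1.06 CPM and 0 in ISO replicates 2 and 3 and 0.613 to 1.56 CPM in saline. Of the 8 atrial markers 5 were tested, and 1 was above saline without overlap, against 14.1% of all tested genes. Over the 8, the sums were 1352, 1530 and 931 CPM in ISO and 75.1 to 249 CPM in saline. Myl7, Sln, Bmp10 and Mybphl were at 0 in at least 1 library. Nppa, the atrial natriuretic peptide gene, gave most of each sum, and the other 7 genes summed to 228, 44.8 and 30.1 CPM in ISO and to 31.9 to 36.0 CPM in saline. Like Myl7, the genes Myl4, Sln, Bmp10 and Mybphl stood apart in ISO replicate 1 alone, with Myl4 at 54.8 CPM there and at 1.31 to 2.93 CPM in the other 5 libraries. Their part in these levels was not tested. For Fos, Junb and Egr1, the values without ISO replicate 1 were 2.84, 1.34 and 1.00 on the log2 scale, against 2.71, 1.17 and 0.75 with all libraries.

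**Figure D5:**
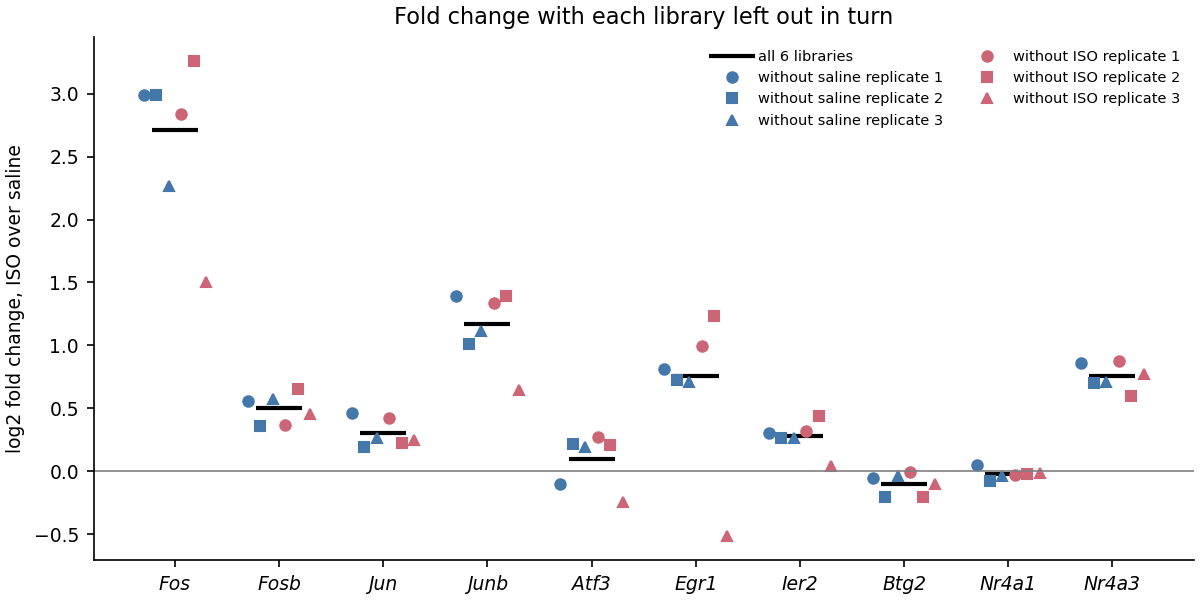
Log2 fold change of ISO over saline for each gene with all 6 libraries (black bars) and with each library left out in turn (blue for a saline library, red for an ISO library, marker shape for the replicate). The red triangles, without ISO replicate 3, drop to 1.50 for Fos, 0.65 for Junb and −0.52 for Egr1.

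The genes whose pattern over the 6 libraries was most like that of the 10 were picked by correlation with the mean of their standardised log2 CPM, among genes averaging 5 CPM or more. They were Plek, which encodes pleckstrin of blood and immune cells, Tagln, which encodes the smooth muscle protein transgelin, Glipr1, Mast3 and Rapgef4, a cyclic AMP-activated exchange factor gene. Their Pearson r was 0.99, 0.99, 0.98, 0.98 and 0.98 over 6 libraries, chosen as the highest among all such genes and so given as a description. The mean they were matched to was 0.07, −0.75 and −0.35 in saline replicates 1 to 3 and 0.00, −0.05 and 1.07 in ISO replicates 1 to 3, with ISO replicate 3 the highest. Tagln, for example, stood at 68.1, 66.9 and 110.5 CPM in ISO and at 68.5, 45.5 and 49.9 CPM in saline.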

How the data were processed

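The labels assign 6 heart RNA libraries to saline or ISO, 3 each. Per the labels' series text, reads were aligned with HISAT2 and counted with featureCounts, with no versions stated. The authors deposited raw counts of reads per gene, without normalisation or a statement on strand. The submitters' processing notes list mm10, while the gene identifiers are rat, so no coordinate was taken from the counts. Rows without a gene name (1006 of 33889, 0.981% to 1.32% of reads) were left out. The rest was tested with edgeR 4.0.16 (R 4.3.3, TMM scaling, default low-count filter), the SE being the log2 fold change divided by the square root of F. DESeq2 1.42.0 and voom of limma 3.58.1 were alternatives, beside other scalings, filters, gene sets, the series' rule, a replicate block and each library left out. Log2 CPM used a prior count of 2. The edgeR, DESeq2 and voom fits were tested on simulated data. The 10 genes and the gene lists were chosen with earlier results of these data known. Besides the 10 genes, up to 3 called genes per pathway list with the smallest p, otherwise the 2 most abundant, were named, and the 5 genes most alike. A gene that this rule picked from the MAP kinase list is not reported here. Motifs were searched in RefSeq GRCr8 windows. Each library is from 1 rat per the series text, no pair of libraries was as alike as sampling noise allows, and depth sets the Poisson and Wilson intervals, which cover counting error only.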

Additional observations from a re-analysis of the deposited data

How the results depend on the processing

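Depth limits the genes with few reads, such as Nr4a3 with 14 to 31. Calls among all genes numbered 409 by edgeR, 1405 by DESeq2, 1812 by the series' rule (absolute log2 fold change over 0.5, unadjusted p under 0.05) and 28 with the replicate block, and ranged from 12 to 838 with each library left out. Of the 10 genes, DESeq2 called 1 (Junb), the series' rule 2 (Fos and Junb), and the fits with a library left out 0 to 1 (Fos, without ISO replicate 2). No other alternative called any. The wider rapid response list had 2 calls by edgeR, 4 without scaling, 5 without a low-count filter, 9 by DESeq2, 1 by voom, 12 by the series' rule, 0 with the replicate block and 0 to 3 with each library left out. With each library left out, the log2 fold change ranged from −0.517 to 1.23 for Egr1, from −0.243 to 0.27 for Atf3 and from −0.081 to 0.049 for Nr4a1, against 0.75, 0.10 and −0.02 with all 6. The sign turned for Egr1 and Atf3 without ISO replicate 3 and for Atf3 and Nr4a1 without saline replicate 1. It also turned for Btg2 (0.004) and Nr4a1 (0.084) without scaling, which moved the median of all genes from 0.02 to 0.13. The split of calls was 203 higher and 206 lower with TMM scaling and 280 and 123 without scaling. Deviations of same-numbered libraries from their group means correlated at 0.09, −0.10 and 0.02, and those of differently numbered libraries at −0.151 to 0.119. Deviations cancel within each group of 3, so these values cannot decide whether replicate numbers pair the libraries. Under the replicate block the calls in the full table fell to 28, with none among the 10. The cause of these shifts was not tested.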
